A study of Mus musculus with 6 samples.

Results

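The 10 genes described here encode the enzymes other than cytochromes P450 that change the sterol ring, shorten the side chain and conjugate the product in bile acid synthesis. They were chosen by gene symbol, as a list of pathway enzymes, and each symbol matched 1 of the 48699 rows of the deposited table. Expression was measured by RNA sequencing of whole liver. The mutant group held 3 libraries of mice labelled hepatocyte-specific fxr-/- shp-/-, called double knockout below, and the control group 3 libraries of Fxrfl/fl Shpfl/fl mice carrying the floxed alleles of both genes. FXR, encoded by Nr1h4, is the nuclear receptor that bile acids activate, and SHP, encoded by Nr0b2, is a nuclear receptor that represses transcription without binding DNA itself. All mice were c57bl/6 males aged 10 to 12 weeks and had been fasted overnight for 8 to 10 hours, and the column names of the deposited values carry the word chow in both groups. The sources used here name neither the recombinase nor its promoter. Each library is called a liver below, though these sources do not tie each library to 1 mouse. Since the samples are whole liver, a smaller number of cells of a type and a smaller amount of RNA per cell cannot be told apart.

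Hepatocytes make bile acids from cholesterol. After cytochromes P450 have added hydroxyl groups, Hsd3b7 oxidises the ring, the reductases Akr1d1 and an aldo-keto reductase of the Akr1c group set its final shape, and peroxisomal enzymes remove the end of the side chain. Slc27a5 and Baat then join the acid to taurine or glycine. Bile acids act through FXR and SHP to repress the first hydroxylation step, and FXR has been described as an inducer of both conjugation genes in rat hepatocytes.

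None of the 10 genes passed the threshold in the double knockout livers, and this held in the fit of all 6 libraries and in each of the 17 alternatives. In the limma model, fitted over the 11810 genes that averaged 0.5 FPKM or more (fragments per kilobase of transcript, scaled to the library's mapped fragments), 0 of 10 had an adjusted p under 0.05, against 0.313% of all genes tested. None had an unadjusted p under 0.05 either, against 14.9% of all genes tested. The authors' deposited table called 0 of 10 at a q-value under 0.05, against 4.58% of the 11844 genes it tested. The log2 fold changes, double knockout minus control on the log2(FPKM + 1) scale, lay between -0.44 and 0.32 with a median of -0.09, beside a median of -0.01 over all genes tested. For 8 of 10, the 95% interval of the fold change lay within a 2-fold change in either direction, which was also the case for 80.0% of all genes tested. Akr1d1 and Amacr were the exceptions. The 3 ring enzymes had positive estimates and the 5 side chain and 2 conjugation enzymes negative ones, with no test between these roles. Of the 10 signs, 6 turned under at least 1 alternative: those of Akr1d1, Akr1c6, Acox2 and Hsd17b4 when a library was left out, and those of Acox2, Hsd17b4, Slc27a5 and Baat when values were rescaled to the same sum in every library (TPM). With 3 libraries in each group the smallest exact permutation p is 0.1, and each gene was therefore tested in the limma model.

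The lowest value of any of the 10 genes, that of Acot8 in double knockout replicate 1, rested on at least 248 fragments per kilobase of transcript. The smallest steps of the values put the depth of the 6 libraries close together, at 1 fragment per 0.0707 to 0.0758 FPKM in a transcript of 1 kilobase. Only a fixed window of low values was searched, so these estimates could not differ widely. Nr1h4 stood at 21.1, 15.5 and 22.0 FPKM in the double knockout and at 59.8, 71.8 and 68.0 FPKM in the controls (log2 fold change -1.73, limma adjusted p = 0.0172), and Nr0b2 at 0.216, 0.0734 and 0.293 FPKM against 14.7, 17.6 and 18.7 FPKM (-3.91, limma adjusted p = 0.000277). Both deleted genes fell. The Nr1h4 call was lost with no filter on low values (limma adjusted p = 0.0654) and without any 1 library other than control replicate 3 (adjusted p 0.0616 to 0.133), at log2 fold changes of -1.82 to -1.58. No double knockout liver overlapped the controls for either gene. The summed FPKM of 6 hepatocyte markers was 39533, 28375 and 48909 in the double knockout and 54013, 65187 and 57145 in the controls, mostly albumin, and the groups did not overlap in this sum. The markers of liver cells were thus present in every library. The 6 Kupffer cell markers summed to 85.9, 208 and 83.2 FPKM against 59.7, 45.6 and 130 FPKM, the 5 endothelial markers to 25.5, 51.9 and 29.3 against 33.7, 34.1 and 45.0 FPKM, and the 5 stellate cell markers to 45.2, 115 and 73.4 against 45.7, 91.6 and 75.6 FPKM. The 5 cholangiocyte markers summed to 59.1, 63.0 and 63.7 against 33.7, 37.3 and 44.2 FPKM, without overlap. That sum was mostly Spp1, at group values of 58.5 against 36.0 FPKM. Krt19, Epcam and Sox9 had group values of at most 1.15 FPKM, and Krt7 went the other way (0.174 against 0.205 FPKM). The 5 lymphocyte markers summed to at most 1.96 FPKM in any library. No marker was at 0 in all 6 libraries. Over log2 values across genes, control replicates 1 and 2 correlated at 0.983. Control replicate 3 stood apart from them, at 0.952 and 0.955. With double knockout replicates 1 to 3 it correlated at 0.956, 0.954 and 0.966. Double knockout replicate 2 correlated at 0.958, 0.952 and 0.954 with control replicates 1 to 3. The 15 immediate-early genes of the stress and injury response summed to 79.6, 70.7 and 172 FPKM in the double knockout and to 60.7, 85.0 and 713 FPKM in the controls, the highest being control replicate 3; their part in the results was not tested. Results that rest on that library are given with and without it for the 10 genes, and for some of the other genes.

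By mean level over the 6 livers, Scp2 was the most abundant of the 10 (1877 FPKM, place 56 of 48699 genes), followed by Akr1c6 (931 FPKM, place 100). Then came Hsd3b7 (385 FPKM), Slc27a5 (355 FPKM), Hsd17b4 (187 FPKM) and Baat (172 FPKM), in which the members of each pair lay within the spread of their libraries. Acox2 (89.3 FPKM), Akr1d1 (65.9 FPKM) and Amacr (65.7 FPKM) could not be ordered beyond their spread either, and Acot8 (23.2 FPKM) was lowest in every library. The levels of the 10 genes spanned a wide range in both groups, as the plot of levels by liver shows.

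**Figure D1:**
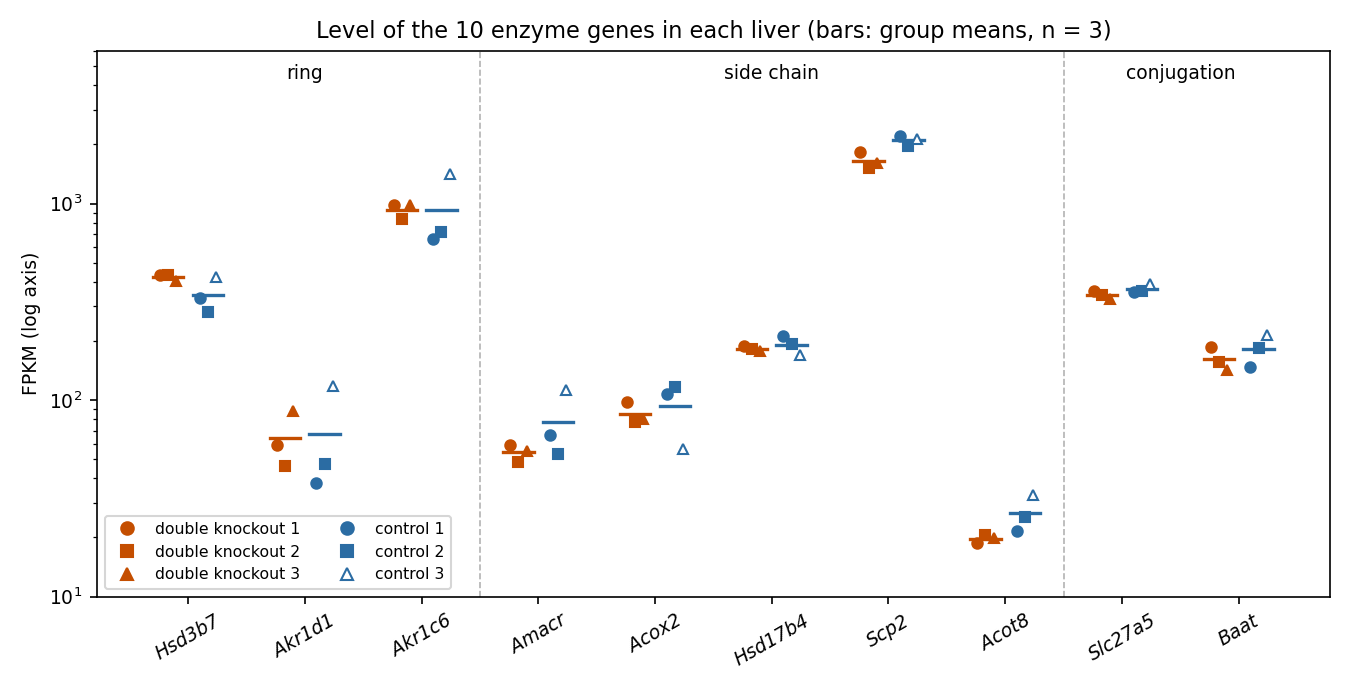
FPKM of each of the 10 genes in each liver, on a log axis, with double knockout libraries in orange on the left and control libraries in blue on the right of each gene; horizontal bars are group means (n = 3 each) and the open triangle is control replicate 3. The groups are apart for Scp2 and Acot8, and control replicate 3 lies away from the other controls for Akr1d1, Akr1c6, Amacr and Acox2.

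The promoter windows of Akr1d1 and Scp2 are shown because they are the members whose RefSeq window of 250 bases before the start held no base of an annotated exon, and because they hold the hexamer AGGTCA, the half-site that many nuclear receptors recognise. RefSeq (GRCm38.p6) gave 7 windows for 6 of the 10 genes, Acot8, Acox2, Akr1c6, Akr1d1, Hsd3b7 and Scp2. Capitals mark AGGTCA, or TGACCT where it lies on the other strand. Both sequences are written 5′ to 3′ on the gene's own strand. The Scp2 window lies inside the gene as GENCODE draws it. The Akr1d1 window lies at chr6:37529923-37530172 on the plus strand and the Scp2 window at chr4:108118548-108118797 on the minus strand.
Akr1d1: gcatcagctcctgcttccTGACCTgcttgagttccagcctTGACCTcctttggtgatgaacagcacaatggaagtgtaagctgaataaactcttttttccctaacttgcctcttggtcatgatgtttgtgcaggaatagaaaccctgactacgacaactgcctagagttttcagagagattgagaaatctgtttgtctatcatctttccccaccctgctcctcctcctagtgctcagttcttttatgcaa
Scp2: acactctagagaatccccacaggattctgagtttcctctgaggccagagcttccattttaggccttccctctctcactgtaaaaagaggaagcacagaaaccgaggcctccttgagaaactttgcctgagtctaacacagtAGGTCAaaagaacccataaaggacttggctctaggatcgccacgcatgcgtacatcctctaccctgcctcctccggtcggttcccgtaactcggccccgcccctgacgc
In Akr1d1 the 2 half-sites began 232 and 210 bases before the start, and in Scp2 the single half-site began 109 bases before it. A half-site was present on either strand in 14.0% of all 32851 promoter windows of that length. The inverted repeat AGGTCANTGACCT, the form bound by FXR with its partner RXR, the direct repeat AGGTCANAGGTCA and the LRH-1 sequence CAAGGTCA were searched on both strands and were found in 0 of the 7 windows, against 0.00609%, 0.0335% and 1.33% of all windows. Each of these longer motifs contains or overlaps the half-site. These letters describe the windows only.

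Of the ring enzymes, Hsd3b7 had the highest estimate with all 6 libraries, and Akr1d1 without control replicate 3. Hsd3b7 (ENSMUSG00000042289.11, chromosome 7, 127800604 to 127803802, plus strand, GRCm38) encodes the dehydrogenase that oxidises the hydroxyl group of the sterol ring after the first hydroxylation. A read-through gene on the same strand, Gm49388, overlaps it at no more than 0.885 FPKM. Hsd3b7 measured 435, 434 and 405 FPKM in the double knockout and 332, 280 and 421 FPKM in the controls. All 3 double knockout livers were above control replicates 1 and 2, and control replicate 3 lay between them. The mean was 1.23-fold that of controls (425 ± 16.9 against 345 ± 71.4 FPKM, SD, n = 3 each; log2 fold change 0.32, SE 0.19, limma adjusted p = 0.463). Without control replicate 3 the groups were apart (0.47, SE 0.15, limma unadjusted p = 0.0194, adjusted p = 0.146). As TPM, Hsd3b7 was the only one of the 10 whose groups did not overlap, at 632, 710 and 580 TPM against 472, 355 and 501 TPM (log2 fold change 0.54, limma adjusted p = 0.195), where 20.5% of all genes tested were apart and higher and 25.4% apart in either direction. It was also the 1 of 10 with an unadjusted p under 0.05 as TPM (limma unadjusted p = 0.0144), against 17.0% of all genes, and 0 of 10 had an adjusted p under 0.05, against 0.61%. The TPM scale moved the median of all genes to 0.18. No member was apart with lower values as TPM, against 4.92% of all genes.

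Akr1d1 (ENSMUSG00000038641.12, chromosome 6, 37530173 to 37568815, plus strand) encodes the reductase that bends the junction of the first rings, a step shared by bile acid synthesis and steroid hormone breakdown. The pseudogene Gm7463 overlaps it on the same strand at 1.09 to 3.18 FPKM. The level of Akr1d1 was 59.0, 45.9 and 88.3 FPKM in the double knockout and 38.0, 47.1 and 117 FPKM in the controls. Control replicate 3 was the highest library and double knockout replicate 3 the next. The group means were close, 64.4 ± 21.7 FPKM against 67.5 ± 43.4 FPKM (SD, n = 3 each), and Akr1d1 had the widest interval of the 10 genes, -0.94 to 1.06 around a log2 fold change of 0.06 (limma adjusted p = 0.961). The mean FPKM was lower in the double knockout while the log2 estimate was positive. Without control replicate 3 the estimate was 0.54 (SE 0.27, limma adjusted p = 0.283). Double knockout replicate 2 remained below control replicate 2 in that comparison.

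Akr1c6 (ENSMUSG00000021210.15, chromosome 13, 4434306 to 4457877, plus strand) encodes a hydroxysteroid dehydrogenase of the aldo-keto reductases. It stood at 979, 831 and 979 FPKM in the double knockout and at 662, 716 and 1419 FPKM in the controls. The control range enclosed the whole double knockout range. The group means were nearly equal (930 ± 85.7 against 932 ± 423 FPKM, SD, n = 3 each; log2 fold change 0.08, SE 0.31, limma adjusted p = 0.922). Control replicate 3 had 2.06 times the mean of the other 2 controls. Without it every double knockout liver was above both controls (0.43, SE 0.18, limma unadjusted p = 0.0470, adjusted p = 0.214). The summed level of the 3 ring enzymes was 1473, 1310 and 1473 FPKM in the double knockout and 1031, 1043 and 1958 FPKM in the controls, the last value again from replicate 3.

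Of the side chain enzymes, Scp2 and Acot8 were the only 2 of the 10 genes whose groups did not overlap, both with lower values in the double knockout. Across all genes tested the groups were apart in 22.9%, apart with higher values in 11.3% and with lower values in 11.6%, so 2 of 10 is near the share in the whole table. Scp2 (ENSMUSG00000028603.15, chromosome 4, 108043839 to 108144998, minus strand) encodes both the peroxisomal thiolase that releases the shortened bile acid and, from a second start inside the gene, sterol carrier protein. The deposited value is for the gene, so these products were not separated, and Podn overlaps it on the same strand at 0.364 to 1.1 FPKM. Its values were 1828, 1513 and 1601 FPKM in the double knockout and 2207, 1971 and 2144 FPKM in the controls. The lowest control lay above the highest double knockout liver, and the log2 fold change was -0.36 (SE 0.19, limma adjusted p = 0.423). With control replicate 3 left out it was -0.34 (limma adjusted p = 0.346). As TPM the groups overlapped, at 2656, 2478 and 2295 TPM in the double knockout against 3140, 2498 and 2547 TPM in the controls (-0.13, limma adjusted p = 0.706). Total FPKM per library was 688182, 610618 and 697877 in the double knockout and 702759, 789099 and 841745 in the controls, so the library sums also differed between the groups, as did the hepatocyte marker sums given above; their part in the Scp2 values was not tested.

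Acot8 (ENSMUSG00000017307.15, chromosome 2, 164792765 to 164804882, minus strand) encodes a peroxisomal thioesterase that frees bile acids and fatty acids from coenzyme A. It measured 18.8, 20.6 and 19.8 FPKM in the double knockout and 21.6, 25.5 and 32.9 FPKM in the controls. The double knockout values lay close together, just below control replicate 1. Its log2 fold change of -0.40 (SE 0.18) had the smallest p of the 10 genes (limma unadjusted p = 0.0574, adjusted p = 0.348), and its 95% interval ran from -0.81 to 0.02. Without control replicate 3 it was -0.24 (limma adjusted p = 0.310). As TPM the groups overlapped. Acot8 overlaps Snx21 on the opposite strand, which stood at 4.34 to 6.72 FPKM over the 6 libraries, and no source used here says whether counting used strand.

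Amacr (ENSMUSG00000022244.6, chromosome 15, 10981756 to 10996626, plus strand) encodes the racemase that turns the side chain intermediate into the form the peroxisomal oxidase accepts. It was at 59.3, 48.2 and 55.1 FPKM in the double knockout and at 66.4, 53.2 and 112 FPKM in the controls. Control replicate 3 had 1.87 times the mean of the other 2 controls, and control replicate 2 lay inside the double knockout range. Amacr had the lowest estimate of the 10 (log2 fold change -0.44, SE 0.27, limma adjusted p = 0.474), which was -0.14 without control replicate 3 (limma adjusted p = 0.627). The authors' deposited table gave Amacr an unadjusted p of 0.0471 and a q-value of 0.243, the only one of the 10 with an unadjusted p under 0.05 there, against 13.3% of the genes in that table.

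Acox2 (ENSMUSG00000021751.13, chromosome 14, 8225511 to 8259353, minus strand) encodes the branched-chain acyl-CoA oxidase that performs the first oxidation of the side chain. It had 97.7, 77.5 and 80.0 FPKM in the double knockout and 107, 117 and 56.3 FPKM in the controls. Here control replicate 3 was the lowest of the 6 livers, 0.503 times the mean of the other 2 controls, opposite to its place for Amacr. The log2 fold change was -0.07 (SE 0.28, limma adjusted p = 0.922) and, without that library, -0.40 (SE 0.15, limma unadjusted p = 0.0353, adjusted p = 0.189) with groups that did not overlap. The ratio of Acox2 to Amacr was 1.65, 1.61 and 1.45 in the double knockout and 1.61, 2.2 and 0.503 in the controls.

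Hsd17b4 (ENSMUSG00000024507.6, chromosome 18, 50128201 to 50196269, plus strand) encodes the bifunctional protein that hydrates and oxidises the side chain after Acox2. It measured 190, 181 and 178 FPKM in the double knockout and 213, 193 and 170 FPKM in the controls. The groups overlapped through control replicate 3, again the lowest library. The log2 fold change was -0.06 with a 95% interval from -0.42 to 0.29 (limma adjusted p = 0.873). Relative to Hsd17b4, Scp2 was lower in each double knockout liver. The ratio of their FPKM was 9.64, 8.34 and 9.02 in the double knockout and 10.4, 10.2 and 12.6 in the controls. Library scaling leaves this ratio as it is, and it was picked after its values were seen. It was the only ratio computed between members whose groups did not overlap, and no share over all gene pairs was computed. The other ratios computed, all with overlap, were Akr1c6 over Akr1d1, Akr1c6 over Hsd3b7, Slc27a5 over Baat and Acox2 over Amacr. The smallest exact two-sided permutation p that a ratio can reach with 3 against 3 is 0.1.

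For both conjugation genes the groups overlapped and the 95% interval spanned 0. Slc27a5 (ENSMUSG00000030382.15, chromosome 7, 12988346 to 12998192, minus strand) encodes the ligase that joins bile acids to coenzyme A. It measured 357, 343 and 328 FPKM in the double knockout and 354, 360 and 388 FPKM in the controls. The groups met at their edges, and the within-group variation was small (coefficient of variation 4.29% and 5.03%). Its log2 fold change was -0.10 (SE 0.15, 95% interval -0.45 to 0.25, limma adjusted p = 0.777), the narrowest interval of the 10.

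Baat (ENSMUSG00000039653.9, chromosome 4, 49489422 to 49506557, minus strand) encodes the transferase that attaches taurine or glycine. It stood at 186, 155 and 142 FPKM in the double knockout and at 148, 184 and 214 FPKM in the controls. The ranges overlapped widely. Its log2 fold change was -0.17 (SE 0.19, 95% interval -0.62 to 0.29, limma adjusted p = 0.716) and -0.04 without control replicate 3 (limma adjusted p = 0.909). Slc27a5 exceeded Baat in every liver, by 1.92, 2.21 and 2.31 times in the double knockout and 2.4, 1.96 and 1.81 times in the controls, ranges that overlap.

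**Figure D2:**
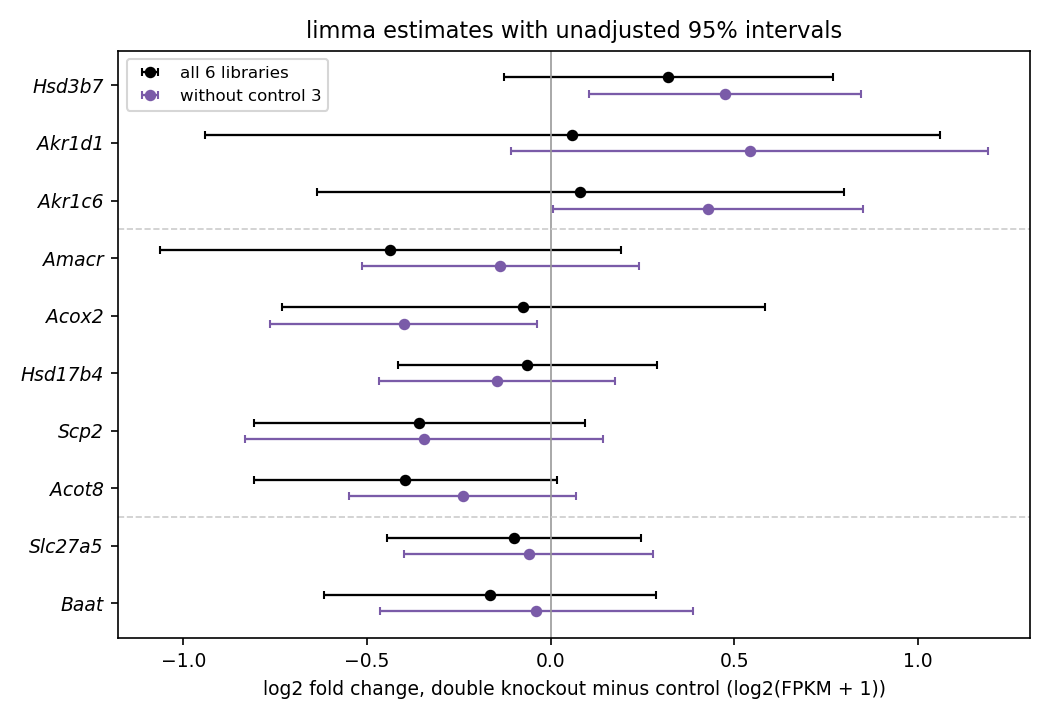
log2 fold change of each gene, double knockout minus control on the log2(FPKM + 1) scale, with limma's unadjusted 95% interval; black uses all 6 libraries and purple leaves out control replicate 3. With all 6 libraries every interval spans 0; without control replicate 3, those of Hsd3b7, Akr1c6 and Acox2 do not, while no adjusted p is under 0.05.

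Control replicate 3 set the highest or the lowest value of 8 of the 10 genes, the highest of 6 and the lowest of 2. It did so in 52.5% of all genes tested and in 58.4% of the 4604 averaging 10 FPKM or more. The genes at its high end were Akr1d1, Akr1c6, Amacr, Acot8, Slc27a5 and Baat, and those at its low end Acox2 and Hsd17b4. Only Hsd3b7 and Scp2 had both ends in other livers. Without control replicate 3, 6 of the 10 genes had groups that did not overlap, 2 higher (Hsd3b7 and Akr1c6) and 4 lower (Acox2, Hsd17b4, Scp2 and Acot8), in a table where 44.7% of all genes tested were then apart. At an unadjusted limma p under 0.05 there were 3 of 10 (Hsd3b7, Akr1c6 and Acox2), against 23.0% of all genes tested. At an adjusted p under 0.05 there were 0 of 10, against 2.05%. Of all genes, 21.6% were apart with higher and 23.1% with lower values. The median over the 10 genes was -0.10 without that library.

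**Figure D3:**
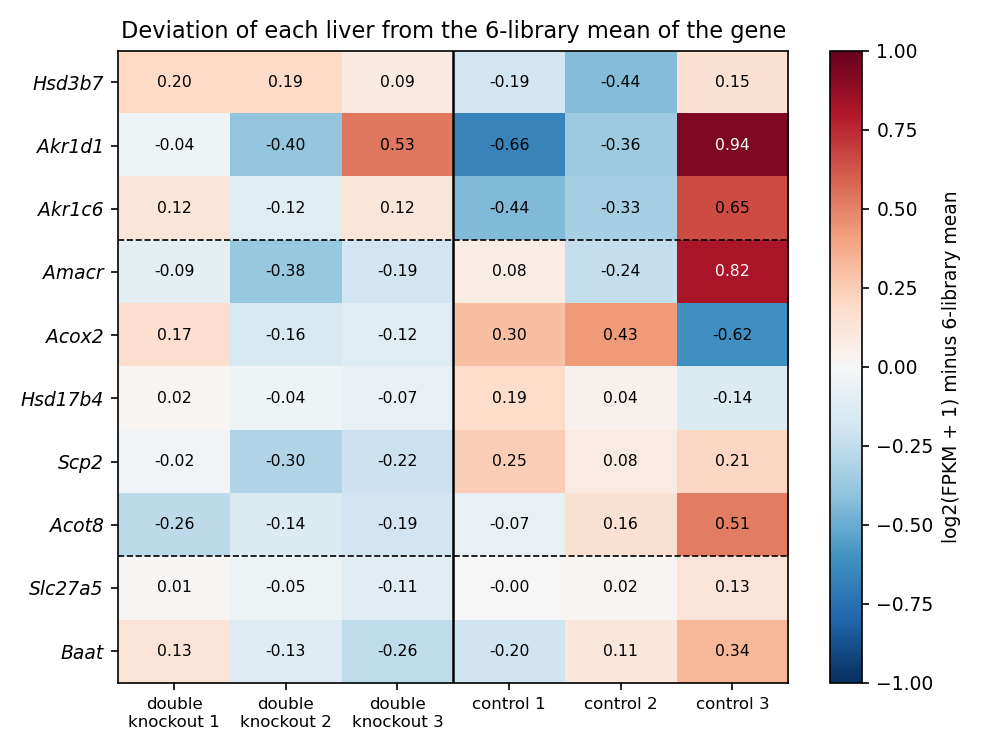
Deviation of each liver from the 6-library mean of the same gene, on the log2(FPKM + 1) scale, with double knockout livers left of the line and controls right; red is above and blue below the mean, and dashed lines part ring, side chain and conjugation genes. The column of control replicate 3 holds the 2 largest deviations, 0.94 for Akr1d1 and 0.82 for Amacr, and the lowest value of Acox2 at -0.62, while Slc27a5 stays within 0.13 of its mean in every liver.

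The members have paralogs in liver whose values did not all follow theirs. Reads shared between close copies could have been assigned to either, and no source used here says how such reads were handled. Of the Akr1c genes, Akr1c14, a hydroxysteroid dehydrogenase, was at 151, 122 and 138 FPKM in the double knockout and 82.0, 105 and 191 FPKM in the controls, with control replicate 3 highest as for Akr1c6. Akr1c19 was at 7.0, 12.2 and 21.5 FPKM in the double knockout and 33.8, 36.5 and 92.9 FPKM in the controls, so that its groups did not overlap (log2 fold change -1.90, SE 0.48, limma unadjusted p = 0.00469, adjusted p = 0.174). The authors' deposited table called Akr1c19 (13.5 against 54.4 FPKM, q = 0.00121). Akr1c12 was at 44.7 ± 2.28 against 67.5 ± 13.4 FPKM, also without overlap, Akr1c13 at 63.6 ± 13.2 against 98.4 ± 32.4 FPKM and Akr1c20 at 59.4 ± 14.1 against 64.5 ± 28.0 FPKM (SD, n = 3 each). Their limma adjusted p lay between 0.216 and 0.940.

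Among the other relatives, Hsd3b3 measured 165, 139 and 169 FPKM in the double knockout and 100.2, 95 and 133 FPKM in the controls, and Hsd3b2 14.4 ± 0.639 against 9.65 ± 1.39 FPKM (SD, n = 3 each). These steroid dehydrogenases had higher values in every double knockout liver than in any control (log2 fold changes 0.54 and 0.54, limma adjusted p = 0.252 and 0.193), unlike Hsd3b7, which overlapped through control replicate 3. Hsd3b5 was at 115 ± 8.63 against 101 ± 19.0 FPKM. Hsdl2, a peroxisomal protein with a sterol carrier domain like that of Scp2, had 43.6 ± 5.45 FPKM in the double knockout and 63.8 ± 2.29 FPKM in the controls, without overlap (-0.54, limma adjusted p = 0.189). Slc27a2, a very long chain acyl-CoA ligase that can also act on bile acid precursors, was at 908 ± 109 against 1055 ± 87.5 FPKM. Acox3, a peroxisomal acyl-CoA oxidase, was at 13.3 ± 4.42 against 8.23 ± 1.40 FPKM (SD, n = 3 each). Acnat1 and Acnat2, acyltransferases related to Baat, were at 20.8 ± 5.03 and 14.9 ± 5.76 FPKM in the double knockout and at 15.8 ± 4.84 and 17.7 ± 11.9 FPKM in the controls. Of all 23 paralogs, 17 were tested, 0 passed limma's threshold, and 4 were apart with higher and 4 with lower values, beside 11.3% and 11.6% of all genes. With library weights Akr1c19, Hsd3b2 and Hsd3b3 passed (limma adjusted p = 0.0463, 0.0309 and 0.0376), and with the replicate block Akr1c19 passed (adjusted p = 0.0170).

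**Figure D4:**
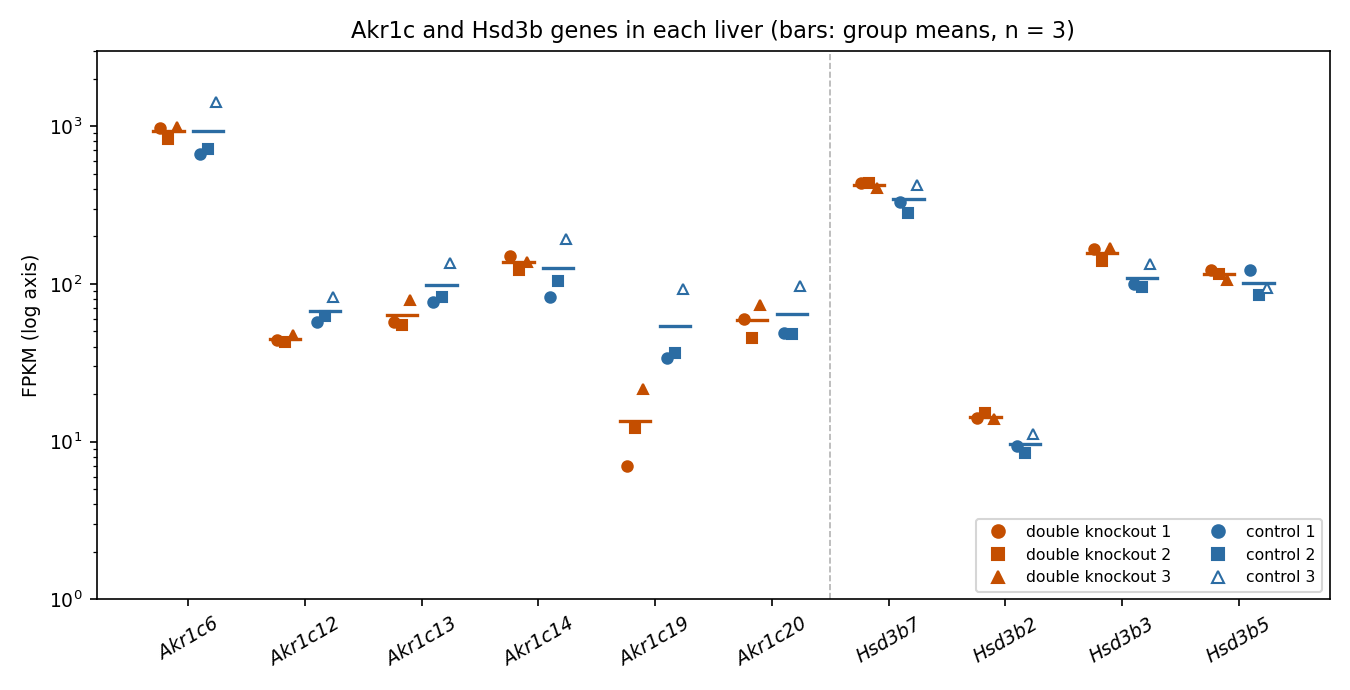
FPKM of Akr1c6 and Hsd3b7 and of their paralogs averaging 10 FPKM or more, in each liver, on a log axis, with double knockout libraries in orange left of the control libraries in blue; bars are group means (n = 3 each) and the open triangle is control replicate 3. The groups of Akr1c12 and Akr1c19 are apart with lower double knockout values and those of Hsd3b2 and Hsd3b3 with higher ones, while Akr1c6 and Hsd3b7 overlap.

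In the neighbouring steps of the pathway, Acaa1b was the 1 listed gene that passed limma's threshold. Of 15 genes of peroxisomal fatty acid oxidation, 12 had negative estimates (median -0.34; as TPM 9, median -0.12; without control replicate 3, 10, median -0.13), and Acaa1b, a thiolase that shortens straight chains as Scp2 does branched ones, fell to 204, 208 and 189 FPKM in the double knockout, against 647, 635 and 785 FPKM in the controls (log2 fold change -1.77, limma adjusted p = 0.0155). The call was lost with no filter on low values (adjusted p = 0.0654) and without any 1 library other than control replicate 3 (adjusted p 0.0616 to 0.129), at log2 fold changes of -1.83 to -1.73. Of these 15 genes, 6 had a limma unadjusted p under 0.05, with estimates of both signs, against 14.9% of all genes tested. The groups were apart with lower values in 5 and with higher values in 1, beside 11.6% and 11.3% of all genes. The authors' deposited table called Acaa1b (q = 0.00121) and Ech1 (q = 0.0390). Of 15 genes of peroxisome import and assembly, 0 passed, with 9 negative estimates and a median of -0.06, and as TPM with 5 negative estimates and a median of 0.15. Abcd3, which carries bile acid precursors into the peroxisome, was at 201 ± 19.0 FPKM against 198 ± 61.1 FPKM (SD, n = 3 each). Pex11a, a factor of peroxisome division, was at 60.3, 50.2 and 40.3 FPKM against 115, 107 and 70.3 FPKM (-0.93, limma adjusted p = 0.177), passed without control replicate 3 (-1.15, adjusted p = 0.0393), and was called in the authors' deposited table (q = 0.00121). Of the 8 hydroxylase genes, 6 were tested and 0 passed, with 4 positive and 2 negative estimates. Cyp8b1 was at 655, 577 and 630 FPKM in the double knockout and 354, 391 and 639 FPKM in the controls. Its log2 fold change was 0.48 (limma adjusted p = 0.407), and 0.74 without control replicate 3 (adjusted p = 0.0707). Cyp7a1, chosen after its values were seen, was at 102, 118 and 126 FPKM against 28.6, 36.2 and 181 FPKM. Its log2 fold change was 0.99 (limma adjusted p = 0.484), and 1.80 without control replicate 3 (adjusted p = 0.00932). Like Hsd3b7 and Akr1c6, both were low in control replicates 1 and 2 and high in control replicate 3. Cyp2c70, the mouse hydroxylase that makes muricholic acids, was at 583, 333 and 309 FPKM against 350, 254 and 286 FPKM. Cyp27a1, also named after its values were seen, went the other way, at 201, 195 and 147 FPKM against 275, 341 and 215 FPKM. Its log2 fold change was -0.60 (limma unadjusted p = 0.0280, adjusted p = 0.286), -0.77 without control replicate 3 (adjusted p = 0.0962) and -0.38 as TPM. With all 6 libraries as FPKM, it was the only tested hydroxylase with a limma unadjusted p under 0.05, against 14.9% of all genes tested. As TPM, Cyp8b1 and Cyp2c70 were under 0.05 (limma unadjusted p = 0.00652 and 0.0468) and Cyp27a1 was not (0.153), against 17.0% of all genes. Without control replicate 3, Cyp7a1, Cyp8b1 and Cyp27a1 were under 0.05, against 23.0%. The authors' deposited table called Cyp46a1 (0.0916 against 0.572 FPKM, q = 0.0472), too low to be tested by limma here. Of 8 other nuclear receptors and liver factors of the pathway, 0 passed. Hnf4a was at 130 ± 11.4 against 158 ± 35.4 FPKM and Rxra, the partner of FXR, at 114 ± 13.0 against 73.9 ± 12.9 FPKM (SD, n = 3 each), the last without overlap (limma adjusted p = 0.200).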

How the data were processed

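Bulk mRNA of liver was sequenced in 6 libraries, 3 double knockout and 3 control, from 1 µg of total RNA with a stranded Illumina kit, per the labels' protocols. Groups and replicate numbers came from the titles. The authors deposited FPKM per library and a second table that, per the file headers, gives each group's FPKM with a p-value and q-value. Tools listed in the submitters' processing notes, with no role, are STAR 2.4.2a, Cuffdiff 2.2.1, Picard 1.119, Trimmomatic and bcl2fastq 2.17.1.14, and the build is GRCm38. No source used here names the annotation.

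FPKM is not a count, so limma 3.58.1 in R 4.3.3 was fitted to log2(FPKM + 1) over all genes averaging 0.5 FPKM or more, with a mean-variance trend and Benjamini-Hochberg adjustment, and called genes at an adjusted p under 0.05. Intervals are limma's unadjusted 95% intervals. The series' design text gives 3 mice without tying each library to 1 mouse, so p-values measure the spread between these samples. Where FPKM is scaled to the library total, very abundant transcripts shift all others, and the scaling of these values was not established. Depth was read from the steps of low values, within a fixed window, in genes with 1 transcript longer than 1500 bases. GENCODE M21 (GRCm38) supplied positions and held 48343 of the 48699 identifiers. The members and lists were chosen with earlier results of these data known. The text names all members, the deleted genes, the called genes of each other list (or, with none, its 2 highest by mean), and paralogs averaging 10 FPKM or more, of which 1 is not reported here. Scaling, pseudocount, filter, weights, trend, length and GC, a replicate block and leaving out each library were tried as alternatives.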

Additional observations from a re-analysis of the deposited data

How the results depend on the processing

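Of the 10 genes, 0 passed the threshold under each of the 17 alternatives in the limma model and by the q-values of the authors' deposited table, and the smallest adjusted p of any of them was 0.0982, that of Hsd3b7 with library weights. Hsd3b7, Amacr, Scp2 and Acot8 kept their direction under all 17. As TPM, where the median of all genes was 0.18, the estimates of Acox2, Hsd17b4, Slc27a5 and Baat were 0.15, 0.16, 0.12 and 0.057, and under quantile normalization 0.10, 0.14, 0.16 and 0.092, so the negative sign of these 4 genes depends on the scaling. The median over the 10 genes was 0.14 as TPM and 0.12 under quantile normalization, against -0.09, and -0.19 to -0.07 with 1 library left out. Leaving out 1 library at a time gave -0.26 to 0.54 for Akr1d1, -0.12 to 0.43 for Akr1c6, -0.40 to 0.12 for Acox2 and -0.15 to 0.015 for Hsd17b4; the negative values of Akr1d1 came without control replicates 1 and 2 (-0.26 and -0.11) and double knockout replicate 3 (-0.19), those of Akr1c6 without control replicates 1 and 2 (-0.12 and -0.06), and the positive values of Acox2 (0.06 and 0.12) and Hsd17b4 (0.015) without control replicate 1 or 2. The cause was not tested.

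Over all genes, 37 passed the threshold, 2 with no filter, 72 as TPM, 563 with library weights, and between 2 and 242 with 1 library left out, the highest without control replicate 3. As TPM, 54 were higher and 18 lower, against 20 and 17. Of the paralogs and neighbours, Akr1c20 had 0.16 as TPM, 0.10 under quantile normalization, 0.21 with library weights and 0.21 with the length and GC trend removed, against -0.06, and -0.24 to 0.26 with 1 library left out (0.26 without control replicate 3 and 0.12 without replicate 2 of the double knockout). Acnat2 had 0.10 as TPM, 0.078 with library weights and 0.066 with the length and GC trend removed, against -0.11, and -0.54 to 0.37 with 1 library left out (0.37 without control replicate 3 and 0.14 without replicate 1 of the double knockout). Slc27a2 had 0.0039 as TPM. With 1 library left out, Abcd3 ranged over -0.15 to 0.29, with -0.02 as its other negative value, and Akr1c14 over -0.056 to 0.55.

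Same-numbered libraries of the 2 groups deviated from their group means with correlations of 0.22, -0.08 and 0.30. Differently numbered libraries gave -0.32 to 0.25, and not every library correlated best with its own number. The labels give no pairing, and these correlations cannot decide whether the numbers pair the samples. With the replicate block, 50 genes passed the threshold against 37, and 0 of the 10; Akr1c19 passed with the block (adjusted p = 0.0170). With library weights Pex11a and Cyp7a1 passed too (limma adjusted p = 0.0240 and 0.0422).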
